A study of Rattus norvegicus with 12 samples.

Results

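The cell cycle genes described here are the 42 members of a list of 45 gene names that were found, by exact gene name, on a rat expression array. The names Mcm3, Mki67 and Cdk1 were not found, and the gene now called Cdk1 was measured under its old name Cdc2, which is also on the list. The members were 42 of 29623 genes tested and had 62 probes, of which 61 were kept, and all 42 members were kept by the filter on dim probes. Of the 42, 36 exceeded background clearly (the scanner software's call of well above background) on all 12 arrays. By role, they comprised 7 G1 cyclins and their kinases, 3 brakes on the cycle, 2 transcription factors, 8 genes of replication licensing, 5 genes of DNA synthesis and 17 genes of G2 and mitosis.

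The tissue was the dorsal root ganglion, where sensory neurons lie together with their glia, of male Sprague-Dawley rats whose sciatic nerve on the left side had been cut by removal of a 1 cm segment at mid-thigh. Ganglia were taken 0.5, 3, 6 or 9 h after the resection, with 3 arrays per time, and the labels divide 24 rats into groups of 6. All groups had the surgery and the anaesthetic, no uninjured group is labelled, and the labels do not say how the rats of a group were divided over its 3 arrays. P-values thus reflect only how far these samples differ among themselves, which may be technical in part, and in whole tissue fewer cells of a type and less RNA per cell cannot be told apart.

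A cell that divides passes through G1, in which D-type and E-type cyclins bind their kinases and release E2F factors from the retinoblastoma protein. It then licenses and copies its DNA, and enters mitosis under cyclin B and Cdk1, with the aurora and polo kinases and a checkpoint that watches the spindle. Sensory neurons are postmitotic, whereas satellite glia, Schwann cells, endothelium and blood-borne cells can divide, and several D cyclins and Cdk inhibitors are also expressed in cells that do not. Many late cell cycle genes share promoter elements through which the DREAM complex and the factor NF-Y act.

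The upstream sequences of 4 members of the mitotic group are shown to give those shared elements in context. All 4 hold such elements, whereas the sequences of the mitotic members Aurka, Bub1 and Mad2l1 hold none of the motifs searched for. Of the 4, Cdc2 was called in no comparison. Each is the 250 bases before the gene's start in RefSeq (build GRCr8), 5′ to 3′ on the gene's strand, and capitals mark matches on either strand to CCAAT (the NF-Y box, ATTGG on the other strand), to TTTGAA, with TTCGAA as its variant (the cell cycle homology element, CHR), or to an E2F motif. The E2F motif searched for was TTCCCGC, with 3 variants, which were TTGGCGC and further TTCGCGC and finally TTGCCGC.
Ccnb1, chr2:33655226-33655475, minus strand: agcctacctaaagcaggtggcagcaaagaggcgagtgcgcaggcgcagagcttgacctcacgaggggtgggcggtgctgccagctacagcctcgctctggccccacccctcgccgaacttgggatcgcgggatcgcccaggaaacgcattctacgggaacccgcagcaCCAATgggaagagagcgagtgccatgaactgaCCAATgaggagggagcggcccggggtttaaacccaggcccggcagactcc
Cdc2 (now Cdk1), chr20:19265043-19265292, plus strand: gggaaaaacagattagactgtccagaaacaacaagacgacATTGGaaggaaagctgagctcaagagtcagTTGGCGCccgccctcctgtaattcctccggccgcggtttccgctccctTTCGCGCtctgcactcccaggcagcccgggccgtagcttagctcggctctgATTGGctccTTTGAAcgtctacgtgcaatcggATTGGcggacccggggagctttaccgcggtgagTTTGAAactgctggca
Cdc20, chr5:137255800-137256049, minus strand: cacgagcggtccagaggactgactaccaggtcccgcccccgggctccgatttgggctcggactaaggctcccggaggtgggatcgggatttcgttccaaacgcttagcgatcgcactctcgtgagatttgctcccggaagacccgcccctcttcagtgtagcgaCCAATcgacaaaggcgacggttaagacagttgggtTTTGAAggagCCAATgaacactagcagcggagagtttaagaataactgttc
Prc1, chr1:143659231-143659480, plus strand: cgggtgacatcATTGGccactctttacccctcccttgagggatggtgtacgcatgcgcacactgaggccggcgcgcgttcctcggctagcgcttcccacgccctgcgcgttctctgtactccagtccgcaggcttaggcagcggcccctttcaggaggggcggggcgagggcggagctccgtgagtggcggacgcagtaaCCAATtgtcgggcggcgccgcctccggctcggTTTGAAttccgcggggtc

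RefSeq upstream sequences were matched for 31 of the 42 members. CCAAT was found in 64.5% of the 31 (20 genes) and in 34% of all 33465 RefSeq promoters of the same length, the CHR element in 35.5% (11 genes) against 17.4%, and an E2F motif in 32.3% (10 genes) against 7.59%. Among the 14 mitotic members with a sequence, 71.4% held CCAAT, 50% the CHR element and 14.3% an E2F motif, whereas among 6 replication licensing genes 66.7% held an E2F motif. Motifs of different kinds can overlap in these sequences, and a match of letters is a description of the window only.

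Levels are log2 intensities minus the 75th percentile of the same array, so that a level of 0 is that percentile, and the level of 1 probe is not set against that of another. Differences are the later time minus the earlier, fitted with limma over all genes, and a member is said to have risen or fallen only where its Benjamini-Hochberg adjusted p over all 29623 genes was under 0.05. The share of spots well above background was 82.9 to 85.9% over the 9 later arrays, against 64.1 to 68.3% over those of 0.5 h, and local background (median intensity) was 37 to 45 later, below the 64 to 86 of the 0.5 h arrays. Each of the 0.5, 3 and 9 h groups lay on a slide of its own and the 6 h group on 2 others, so that slide and time cannot be told apart. Only 6 h against 3 h compares arrays scanned on the same day, so that for every other comparison scan day and time cannot be told apart. Neuron, satellite glia and Schwann cell markers were all present, with 5 of 6, 5 of 6 and 6 of 6 markers kept. Among the arrays, 6 h replicate 3 stood apart with high levels of many members and of some blood cell markers, and 3 h replicate 3 with low levels of some members. Over all genes, 9 h replicate 3 stood apart: 23.5% had their highest level there, against 10.1% on 9 h replicate 1, the next array. Of the members, 7.14% had theirs on 9 h replicate 3. The comparisons with 0.5 h share the 0.5 h arrays.

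Across the 6 comparisons of times, 17 members (40.5%) were called at least once and 25 never, where 52.6% of all genes were called at least once. The F test over the 4 times called 14 (33.3%, against 43.6% of all genes). The shares called were near those of all genes in each comparison with 0.5 h. At 3 h 9 members were called (6 higher and 3 lower), or 21.4% against 22.7% of all genes (9.69% higher and 13% lower). At 6 h 7 members were called, all higher, or 16.7% against 13.4% of all genes, where 4.07% of all genes were called higher and 9.31% lower. At 9 h 12 were called (9 higher and 3 lower), or 28.6% against 33.4% of all genes (22.7% higher and 10.7% lower). Of the 36 members well above background on all 12 arrays, 6 were called at 3 h (16.7%, 3 higher and 3 lower). At 6 h 3 of the 36 were called (8.33%, all higher) and at 9 h 8 (22.2%, 5 higher and 3 lower). The share of all genes filtered in that way is not given. The members' split at 3 h was 8 higher and 3 lower under quantile scaling, 9 and 3 under median scaling and 5 and 5 under cyclic loess. That at 9 h was 4 and 4, 3 and 4, and 3 and 4. The shares of all genes called under these scalings are not given. The median difference of all genes at 9 h was 0.04, -0.01 and 0.05 under them. The members' median difference from 0.5 h was 0.03 at 3 h, 0.19 at 6 h and 0.13 at 9 h, where that of all genes was 0.02, -0.04 and 0.10.

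Between later times fewer members were called. Between 3 and 6 h 3 members rose, or 7.14% against 10.4% of all genes (5.93% higher and 4.45% lower). In the comparison of 9 h with 6 h 1 rose and 5 fell, or 14.3% against 25.1% of all genes (19.2% higher and 5.93% lower). Under median scaling 1 rose and 18 fell. That scaling moved the median of all genes from 0.11 to -0.1 and that of the members from -0.16 to -0.37. In the comparison of 9 h with 3 h 3 rose and 2 fell, or 11.9% against 23.5% of all genes (17.7% higher and 5.87% lower). The split was 3 and 3 under quantile and cyclic loess scaling and 2 and 5 under median scaling. The shares of all genes called under these scalings are not given. With normexp background correction in place of the scanner software's own, none of the 42 calls that these comparisons made in all was kept, and the number of members called was 0 in every comparison. Under that correction 685 genes of the whole table were called at 3 h, 1 at 6 h and 425 at 9 h against 0.5 h.

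**Figure D1:**
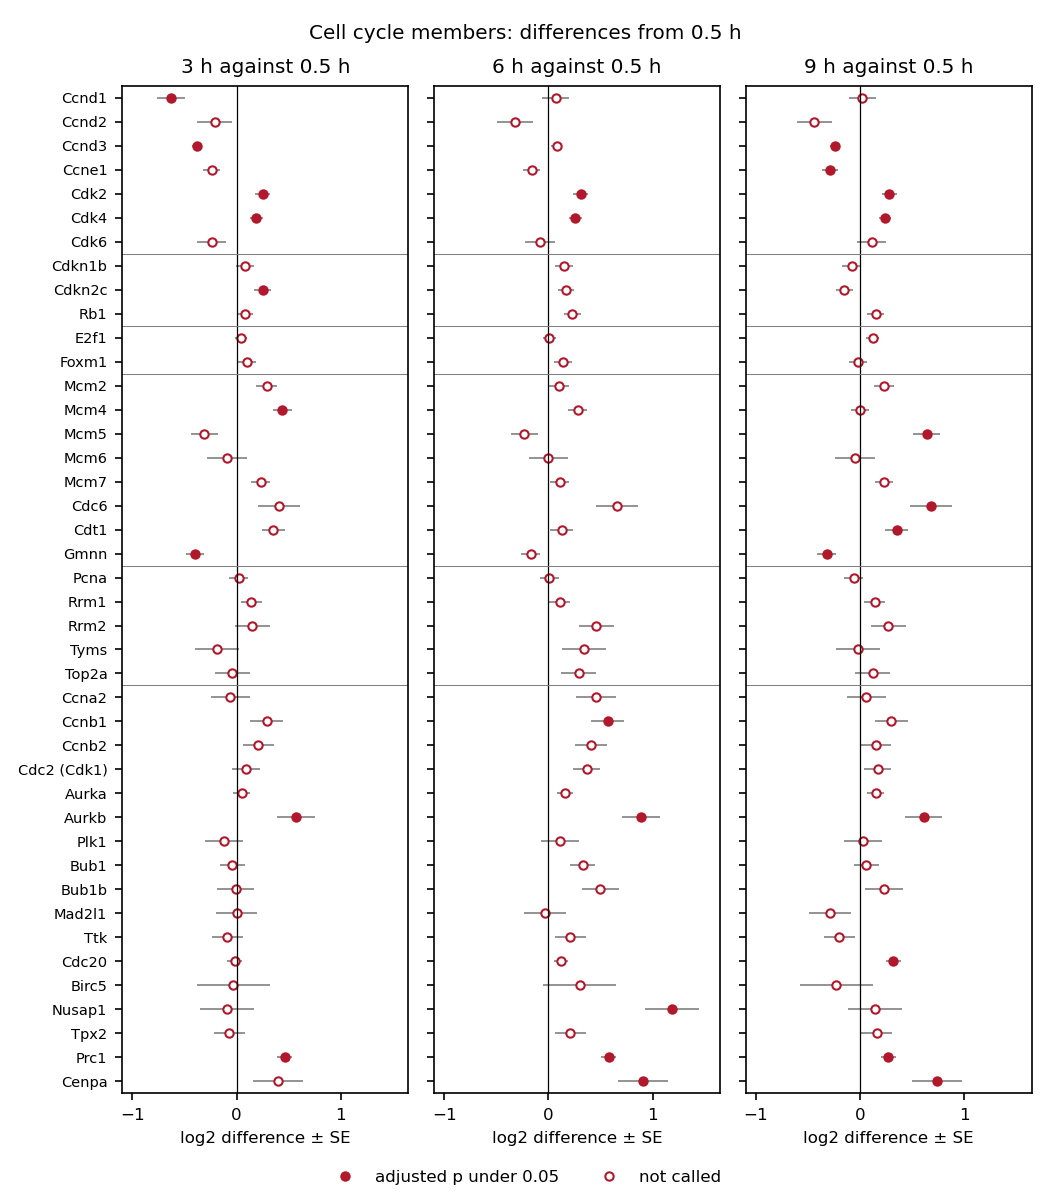
Log2 difference (x axis, with its SE) of each of the 42 members at 3, 6 and 9 h against 0.5 h, members grouped by role from the G1 cyclins at the top to the mitotic genes at the bottom. Filled points were called at an adjusted p under 0.05: 9 at 3 h, 7 at 6 h and 12 at 9 h.

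Of the 3 D cyclins, Ccnd1 and Ccnd3 fell at 3 h and Ccnd2 was not called. Ccnd1 encodes cyclin D1, the partner of Cdk4 and Cdk6 that is induced by growth factor signals. Its level was 1.19, 1.64 and 1.44 on the 3 h arrays, against 2.18, 1.90 and 2.07 at 0.5 h. The 3 h arrays lay below every array of the other times, with no overlap. Ccnd1 fell by 0.63 on the log2 scale at 3 h (SE 0.13, limma adjusted p = 0.00843). At 6 h it was 2.03, 2.28 and 2.06, which is 0.70 above 3 h (SE 0.13, adjusted p = 0.00846, a comparison within 1 scan day, lost without 3 h replicate 3 and 6 h replicate 3 together), and at 9 h it was 2.24, 1.94 and 2.04, which is 0.65 above 3 h (SE 0.13, adjusted p = 0.0062). The difference from 0.5 h was 0.07 at 6 h and 0.02 at 9 h, neither called.

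A further Ccnd1 probe, which lies closer to the transcript's 5′ end, gave 0.87, 0.91 and 1.04 at 3 h, against 2.31, 1.88 and 2.03 at 0.5 h. It fell by 1.14 at 3 h (SE 0.14, adjusted p over probes = 0.000669) and stood 0.71 above 3 h at 6 h (adjusted p over probes = 0.0125). Unlike the brighter probe it was still 0.43 below 0.5 h at 6 h and 0.35 below at 9 h, differences that were not called (adjusted p over probes = 0.0823 and 0.0859).

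Ccnd3, cyclin D3, had levels of -0.26, -0.22 and -0.33 at 3 h, against 0.13, 0.10 and 0.10 at 0.5 h. It was 0.16, 0.15 and 0.26 at 6 h and -0.15, -0.14 and -0.10 at 9 h. No 2 times overlapped, so that the probe was lowest on the 3 h arrays, next on the 9 h arrays, and highest on the 6 h arrays. The array files place this probe on chromosome 8 at 77073561 to 77073615 (rn4), whereas RefSeq places Ccnd3 on chromosome 9 (GRCr8). Whether the probe measures Ccnd3 was not tested. The values below are those of the probe. It fell by 0.38 at 3 h (SE 0.05, adjusted p = 0.00118), stood 0.46 higher at 6 h than at 3 h (SE 0.05, adjusted p = 0.000579), fell by 0.32 at 9 h against 6 h (adjusted p = 0.0017) and was 0.24 below 0.5 h at 9 h (adjusted p = 0.0078). Ccnd2, cyclin D2, was not called in any comparison, and its levels were -0.12, 0.26 and 0.15 at 3 h, against 0.61, 0.11 and 0.21 at 0.5 h.

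Cdk2 and Cdk4, the kinases of cyclin E and of the D cyclins, were called higher at all later times by small amounts, and the 9 h calls of both were lost under median scaling. Cdk2 was at -1.94, -2.1 and -2 at 0.5 h, -1.82, -1.73 and -1.76 at 3 h, -1.71, -1.8 and -1.6 at 6 h and -1.79, -1.73 and -1.68 at 9 h. Every later array was above every 0.5 h array, and the differences were 0.25, 0.31 and 0.28 (SE 0.07 each, adjusted p = 0.0303, 0.0179 and 0.0121). Cdk4 was at 1.04, 1.00 and 1.01 at 0.5 h, 1.15, 1.28 and 1.19 at 3 h, 1.23, 1.29 and 1.30 at 6 h and 1.24, 1.34 and 1.19 at 9 h. Its later arrays too lay above those of 0.5 h, and it rose by 0.19, 0.26 and 0.24 (SE 0.06 each, adjusted p = 0.0442, 0.02 and 0.0121). The 3 h call of Cdk4 was lost when any of 10 of the 12 arrays was left out (adjusted p = 0.0541 to 0.121), and that of Cdk2 when any of 5 arrays was (0.0546 to 0.0988). At 6 h Cdk2 was lost without 0.5 h replicate 2, 6 h replicate 1 or 6 h replicate 3 (0.0512 to 0.0662) and Cdk4 without 0.5 h replicate 2 or 3 or 6 h replicate 2 or 3 (0.0535 to 0.0694). All 3 Cdk2 calls were lost with the mean of its probes and those at 3 and 6 h with only the arrays of the 2 times. The 3 h call of Cdk4 was lost under quantile and cyclic loess scaling, with the replicate block and with only the arrays of the 2 times. Without 3 h replicate 3 and 6 h replicate 3 together the 3 and 6 h calls of both kinases were lost.

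Ccne1, cyclin E1, was at 1.31, 1.21 and 1.32 at 9 h, against 1.48, 1.6 and 1.63 at 0.5 h, and fell by 0.29 (SE 0.08, adjusted p = 0.0241). The times did not overlap, and without 0.5 h replicate 2 or 3 or 9 h replicate 2 the call was lost (adjusted p = 0.0678 to 0.0788). Cdk6, the other partner of the D cyclins, was not called and ranged from -4.15 to -3.58 over the 12 arrays.

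**Figure D2:**
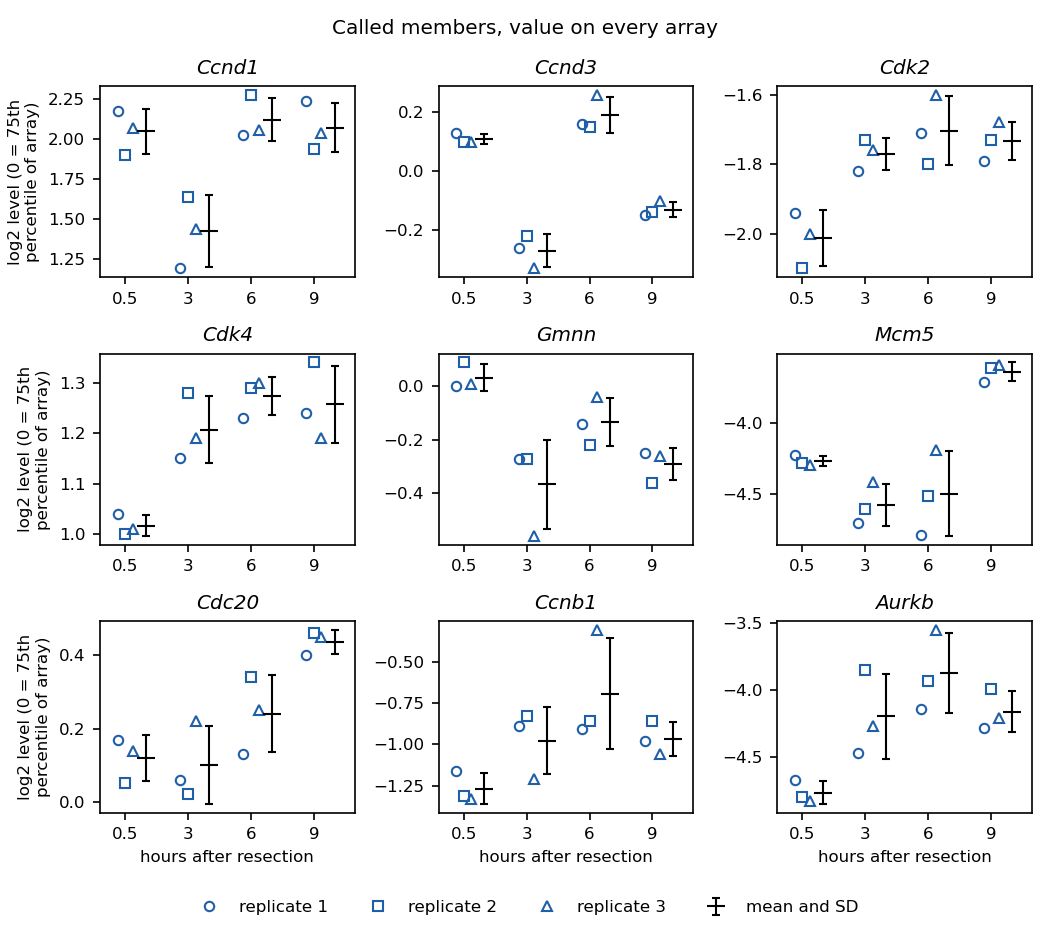
Level (y axis, log2 intensity with 0 at the array's 75th percentile) of 9 called members on each of the 12 arrays by hours after resection (x axis), with the mean and SD of 3 arrays beside each time. Ccnd1 and Ccnd3 are lowest at 3 h, Cdk2 and Cdk4 are lowest at 0.5 h, and Mcm5 and Cdc20 are highest at 9 h.

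Among the brakes, Cdkn2c, the p18 inhibitor of Cdk4 and Cdk6, was at -1.27, -1.14 and -1.39 at 3 h, against -1.46, -1.52 and -1.57 at 0.5 h, and rose by 0.25 (SE 0.08, adjusted p = 0.0436). At 9 h it was -1.63, -1.68 and -1.67, below every array of the earlier times, and it fell by 0.32 at 9 h against 6 h (SE 0.08, adjusted p = 0.0125) and by 0.40 against 3 h (adjusted p = 0.00518). The 3 h rise was lost when any of 9 arrays was left out (adjusted p = 0.0543 to 0.124), with the replicate block and with only the arrays of the 2 times, and the fall at 9 h against 6 h without 6 h replicate 3 (adjusted p = 0.0559). Cdkn1b, the inhibitor p27, and Rb1, the retinoblastoma protein, were not called.

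The other probes of both genes differed from these values. For Cdkn1b the dimmer probe was at 0.56, 0.40 and 0.21 at 9 h, against 1.31, 1.04 and 0.74 at 0.5 h, and fell by 0.64 (SE 0.14, adjusted p over probes = 0.00798), and it fell by 0.52 against 3 h. For Rb1 the dimmer probe was at -3.93, -3.76 and -3.82 at 9 h, against -3.27, -3.34 and -3.30 at 0.5 h, and fell by 0.53 (SE 0.07, adjusted p over probes = 0.000832), and it fell by 0.70 against 6 h and by 0.57 against 3 h. Neither transcription factor was called: E2f1, which drives S phase genes, ranged from 1.25 to 1.48 over the 12 arrays, and Foxm1, which drives mitotic genes, from -1.13 to -0.75.

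Of the replication licensing genes, 5 of 8 were called in at least 1 comparison (52.6% of all genes were), in different directions. Mcm5, a subunit of the Mcm helicase, was at -4.23, -4.28 and -4.30 at 0.5 h, -4.71, -4.61 and -4.42 at 3 h, -4.79, -4.52 and -4.19 at 6 h and -3.71, -3.61 and -3.59 at 9 h. The 9 h arrays lay above all others. Mcm5 rose at 9 h by 0.64 against 0.5 h (SE 0.13, adjusted p = 0.00576), by 0.87 against 6 h (adjusted p = 0.00093) and by 0.94 against 3 h (adjusted p = 0.000932). The call against 0.5 h was lost under cyclic loess scaling. Its probe, which lies on chromosome 19 at 13992982 to 13993041 (rn4, plus strand), is shown since Mcm5 had the largest rise of the licensing genes in the comparisons of 9 h with 6 h and 3 h.
Mcm5 probe: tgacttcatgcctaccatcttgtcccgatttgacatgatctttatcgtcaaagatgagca

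Mcm4, another helicase subunit, was at -4.03, -3.90 and -4.03 at 3 h, against -4.42, -4.32 and -4.52 at 0.5 h, and rose by 0.44 (SE 0.09, adjusted p = 0.00637). At 9 h it was -4.57, -4.35 and -4.36, a fall by 0.44 against 3 h (adjusted p = 0.00534) and by 0.29 against 6 h (adjusted p = 0.0367). At 0.5 h, 2 of 3 arrays were well above background for this probe. The other Mcm4 probe was not called in any of these comparisons (0.23 for 3 h over 0.5 h, -0.12 for 9 h over 3 h and 0.16 for 9 h over 6 h), and with the mean of both probes all 3 calls were lost. The call of 9 h against 6 h was also lost with the trend and robust variance model, with the replicate block, with only the arrays of the 2 times, and without 3 h replicate 3 and 6 h replicate 3 together. Leaving out a single array ended it for 5 of the 12 arrays (adjusted p = 0.052 to 0.117), which were 3 h replicate 1 and those numbered 1 or 3 of the 6 h and 9 h groups.

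Cdc6 and Cdt1 load the Mcm helicase onto DNA, and Gmnn encodes geminin, the inhibitor of Cdt1. Cdc6 was at -4.53, -4.15 and -4.18 at 9 h, against -4.99, -4.88 and -5.05 at 0.5 h, where no array was well above background, so that it was at least 1.4-fold higher at 9 h (adjusted p = 0.0238). Cdt1 was at -3.53, -3.34 and -3.51 at 9 h, against -3.79, -3.82 and -3.81 at 0.5 h, and rose by 0.35 (SE 0.11, adjusted p = 0.0391). Neither overlapped between the times. The Cdc6 call was lost without 0.5 h replicate 1 or 3 or 9 h replicate 2 or 3 (adjusted p = 0.0573 to 0.0753), and that of Cdt1 without any of 7 arrays (0.0512 to 0.123). Both were lost under quantile and cyclic loess scaling and with a common detection floor (signals under the highest of the arrays' detection limits set to that limit). Cdt1 was also lost under median scaling and with the replicate block.

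Gmnn moved the other way. It was at 0.00, 0.09 and 0.01 at 0.5 h, -0.27, -0.27 and -0.56 at 3 h, -0.14, -0.22 and -0.04 at 6 h and -0.25, -0.36 and -0.26 at 9 h. It fell by 0.40 at 3 h (SE 0.09, adjusted p = 0.00954) and by 0.32 at 9 h (SE 0.09, adjusted p = 0.0175), without overlap, and the call at 9 h was lost without 0.5 h replicate 2 or 9 h replicate 2 (adjusted p = 0.0568 and 0.0596). Mcm2, Mcm6 and Mcm7, the remaining helicase subunits on the array, were not called.

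None of the 5 DNA synthesis genes was called in any comparison: Pcna, the sliding clamp of the polymerases, Rrm1 and Rrm2, the subunits of ribonucleotide reductase, Tyms, thymidylate synthase, and Top2a, topoisomerase 2. Tyms had the widest range of the 5, from -3.49 on 3 h replicate 3 to -2.19 on 6 h replicate 3. The probes of Rrm2 disagreed. The brighter one was at -3.10, -3.07 and -3.14 at 9 h, against -3.11, -3.15 and -2.47 at 6 h, while the dimmer one was at -2.49, -2.43 and -2.43 at 9 h, against -4.02, -3.69 and -3.72 at 6 h.

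The dimmer Rrm2 probe rose by 1.36 at 9 h against 6 h (SE 0.12, adjusted p over probes = 3.44e-05) and by 0.80 against 0.5 h (SE 0.12, adjusted p over probes = 0.000975), where the brighter one had -0.19 and 0.27, not called. The dimmer probe fell by 0.56 at 6 h against 0.5 h (adjusted p over probes = 0.0145) and rose by 1.13 at 9 h against 3 h. The dimmer probe lies on chromosome 6 at 42351613 to 42351672 (rn4, plus strand), upstream of the brighter one at 42357945 to 42358004, and its sequence is shown since the reading of Rrm2 depends on it.
Rrm2 dimmer probe: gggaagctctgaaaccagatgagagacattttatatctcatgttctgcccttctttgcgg
The dimmer Pcna probe also fell at 9 h against 0.5 h by 0.35 (SE 0.08, adjusted p over probes = 0.0119) and against 6 h by 0.34, where the brighter one had -0.06 and -0.07, not called.

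**Figure D3:**
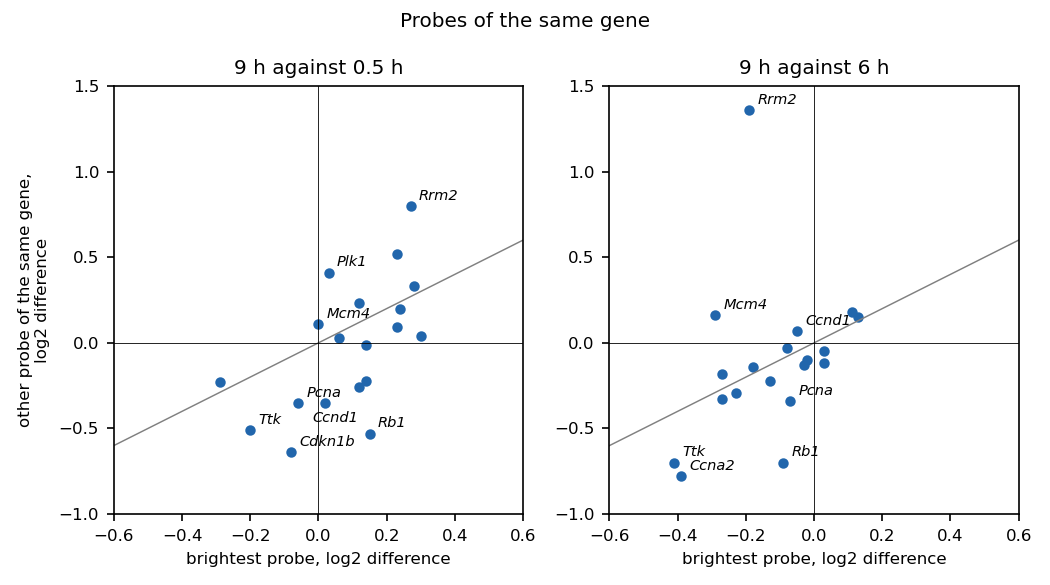
Log2 difference of the brightest probe (x axis) and of each of the 19 other kept probes of the same member (y axis) for 9 h against 0.5 h (left) and 9 h over 6 h (right). The grey line marks equal values, and the dimmer Rrm2 probe lies farthest above it, at 1.36 against -0.19 in the right panel.

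Of the 17 members of G2 and mitosis, 2 rose at 3 h, 5 at 6 h and 4 at 9 h, and none fell against 0.5 h. Of all genes 9.69, 4.07 and 22.7% rose and 13, 9.31 and 10.7% fell at these times. Most of these mitotic calls were of probes that were dim at 0.5 h and passed the filter through later arrays. For Prc1, Cenpa and Nusap1 no 0.5 h array was well above background, and for Aurkb 1 was. Among mitotic members well above background on all arrays, only Ccnb1 at 6 h and Cdc20 at 9 h were called against 0.5 h. The differences from 0.5 h were above 0 for 8 of the 17 at 3 h, for 16 at 6 h and for 14 at 9 h, and their median was -0.01 at 3 h, 0.37 at 6 h and 0.15 at 9 h. The share of all genes with a difference above 0 was 52.9% at 3 h, 44.1% at 6 h and 62.9% at 9 h. Without 6 h replicate 3, 3 of the 17 were called at 6 h, 15 had a difference above 0 and the median was 0.21.

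Ccnb1 encodes cyclin B1, which with Cdk1 starts mitosis. It was at -0.91, -0.86 and -0.31 at 6 h, against -1.16, -1.31 and -1.33 at 0.5 h, and rose by 0.57 (SE 0.16, adjusted p = 0.0414). The times did not overlap, and 6 h replicate 3 was the highest array by far. Without it the difference was 0.38 and not called (adjusted p = 0.0896), and leaving out any of 8 other arrays also ended the call (the 9 together 0.0515 to 0.105), as did the common floor, the replicate block and the use of only the arrays of the 2 times. The dimmer Ccnb1 probe rose by 0.37 at 6 h (SE 0.10, adjusted p over probes = 0.04). Ccnb2, cyclin B2, and Cdc2 were also highest on 6 h replicate 3 but were not called, with Ccnb2 at -1.66, -1.6 and -1.25 at 6 h, against -1.85, -1.93 and -1.97 at 0.5 h, and Cdc2 at 0.76, 0.87 and 1.16 at 6 h, against 0.61, 0.58 and 0.49 at 0.5 h.

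Aurkb is the aurora B kinase of the chromosomal passenger complex, which corrects attachments of chromosomes to the spindle. It was at -4.67, -4.80 and -4.83 at 0.5 h, -4.47, -3.85 and -4.27 at 3 h, -4.14, -3.93 and -3.55 at 6 h and -4.28, -3.99 and -4.21 at 9 h. All 9 later arrays were above the 0.5 h arrays, of which only 1 was well above background for this probe. The differences were 0.57, 0.89 and 0.61 (SE 0.18 each, adjusted p = 0.0469, 0.0122 and 0.0267). The 6 h call was kept whichever single array was left out but was lost without 3 h replicate 3 and 6 h replicate 3 together. The 3 h call was lost without any of 9 arrays (adjusted p = 0.0551 to 0.133) and the 9 h call without 0.5 h replicate 2 or 3 or 9 h replicate 2 or 3 (0.0539 to 0.087). The 9 h call was also lost under quantile, median and cyclic loess scaling, with a difference down to 0.20, and with the common floor. The 3 h call was also lost under cyclic loess, with the floor, with the replicate block, with only the arrays of the 2 times and without 3 h replicate 3 and 6 h replicate 3 together.

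Prc1 bundles the microtubules of the central spindle. It was at -5.35, -5.22 and -5.25 at 0.5 h, where no array was well above background, -4.77, -4.88 and -4.78 at 3 h, -4.71, -4.76 and -4.6 at 6 h and -5.08, -4.87 and -5.05 at 9 h. The later arrays all lay above those of 0.5 h. Against each array's own detection limit it was at least 1.02-fold higher at 3 h and at least 1.11-fold higher at 6 h (adjusted p = 0.00229 and 0.00233), with no usable bound at 9 h (adjusted p = 0.0193). With the common floor, which is higher, the differences were 0 at 3 h and 0.03 at 6 h. All of its calls were lost there. At 9 h it fell by 0.31 against 6 h (SE 0.07, adjusted p = 0.0121), a call that was also lost without 6 h replicate 3 (adjusted p = 0.0544), without it and 3 h replicate 3 together, and with the trend and robust variance model. Its difference at 9 h against 0.5 h had the opposite sign under quantile (-0.17) and cyclic loess scaling (-0.12), and its call was lost under median scaling, with the trend and robust model, with only the arrays of the 2 times, and without 0.5 h replicate 1 or 9 h replicate 2 (adjusted p = 0.0629 and 0.0664).

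Cenpa, the histone of centromeres, was at -5.78, -5.57 and -5.24 at 0.5 h, again with no array well above background, -5.01, -4.88 and -5.52 at 3 h, -4.92, -4.85 and -4.09 at 6 h and -4.77, -4.78 and -4.83 at 9 h. The 6 and 9 h arrays lay above those of 0.5 h. It was at least 1.17-fold higher at 6 h (adjusted p = 0.0327) and at least 1.03-fold at 9 h (adjusted p = 0.0374). The 6 h call was lost without 0.5 h replicate 1 or 2 or 6 h replicate 3 (adjusted p = 0.0831 to 0.0894), and the 9 h call without any of 6 arrays (0.0501 to 0.113). With the common floor the differences were 0.21 at 6 h and 0 at 9 h. Both calls were lost there and with the replicate block. The 6 h call was also lost with only the arrays of the 2 times, and the 9 h call under quantile, median and cyclic loess scaling.

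Nusap1, a microtubule-binding protein of the spindle, was at -6.17, -5.93 and -6.68 at 0.5 h, -6.29, -6.04 and -6.71 at 3 h, -5.39, -5.24 and -4.57 at 6 h and -6.09, -6.25 and -6.02 at 9 h. The 6 h arrays lay above all others. It rose by 1.28 at 6 h against 3 h (SE 0.26, adjusted p = 0.0116), within 1 scan day, and fell by 1.05 at 9 h against 6 h (SE 0.26, adjusted p = 0.0134), and it was called at 6 h against 0.5 h (adjusted p = 0.0157) with no usable bound, since no 0.5 h array was well above background. All 3 calls were lost with the common floor, where the rises were 0.05, the rise against 3 h also under quantile scaling and that against 0.5 h also with only the arrays of the 2 times. The rise against 3 h was 0.85 and no longer called without 3 h replicate 3 and 6 h replicate 3 together (adjusted p = 0.094).

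Cdc20, which activates the anaphase-promoting complex, was called at 9 h and at no earlier time. It was at 0.17, 0.05 and 0.14 at 0.5 h, 0.06, 0.02 and 0.22 at 3 h, 0.13, 0.34 and 0.25 at 6 h and 0.40, 0.46 and 0.45 at 9 h. The 9 h arrays were above all others, and Cdc20 rose by 0.32 at 9 h against 0.5 h (SE 0.07, adjusted p = 0.00985) and by 0.34 against 3 h (SE 0.07, adjusted p = 0.00942), the second of which was lost under median scaling. Its 6 h level did not differ from 0.5 h by a called amount (0.12).

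The remaining 11 mitotic members beside these 6 were called in no comparison: Ccna2, Ccnb2, Cdc2, Aurka, Plk1, Bub1, Bub1b, Mad2l1, Ttk, Birc5 and Tpx2. Ccna2, cyclin A2, was at -1.69, -1.57 and -0.85 at 6 h, against -1.88, -1.81 and -1.78 at 0.5 h. Bub1b, a spindle checkpoint kinase-like protein, was at -2.21, -2.01 and -1.49 at 6 h, against -2.31, -2.49 and -2.41 at 0.5 h. In both, 6 h replicate 3 was the highest array and the other 6 h arrays lay closer to 0.5 h. Birc5, survivin, had the widest spread within a time, with -2.80 on 9 h replicate 1 and -1.44 and -1.41 on the other 9 h arrays.

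The dimmer probes of 3 of these genes were called where the brighter ones were not. The dimmer Ttk probe, for a spindle checkpoint kinase, fell at 9 h by 0.51 against 0.5 h, by 0.70 against 6 h and by 0.64 against 3 h (SE 0.16 each, adjusted p over probes = 0.0324, 0.00896 and 0.0159), where the brighter one had -0.20, -0.41 and -0.11. Only 1 of the 0.5 h arrays was well above background for this dimmer Ttk probe. The dimmer probe of Plk1, the polo-like kinase, rose at 9 h against 0.5 h by 0.41 (SE 0.13, adjusted p over probes = 0.0384), where the brighter one had 0.03. The dimmer Ccna2 probe fell at 9 h against 6 h by 0.78 (SE 0.24, adjusted p over probes = 0.0382), where the brighter one had -0.39. The dimmer Ccnb1 probe also fell at 9 h against 6 h, by 0.33 (adjusted p over probes = 0.0398).

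**Figure D4:**
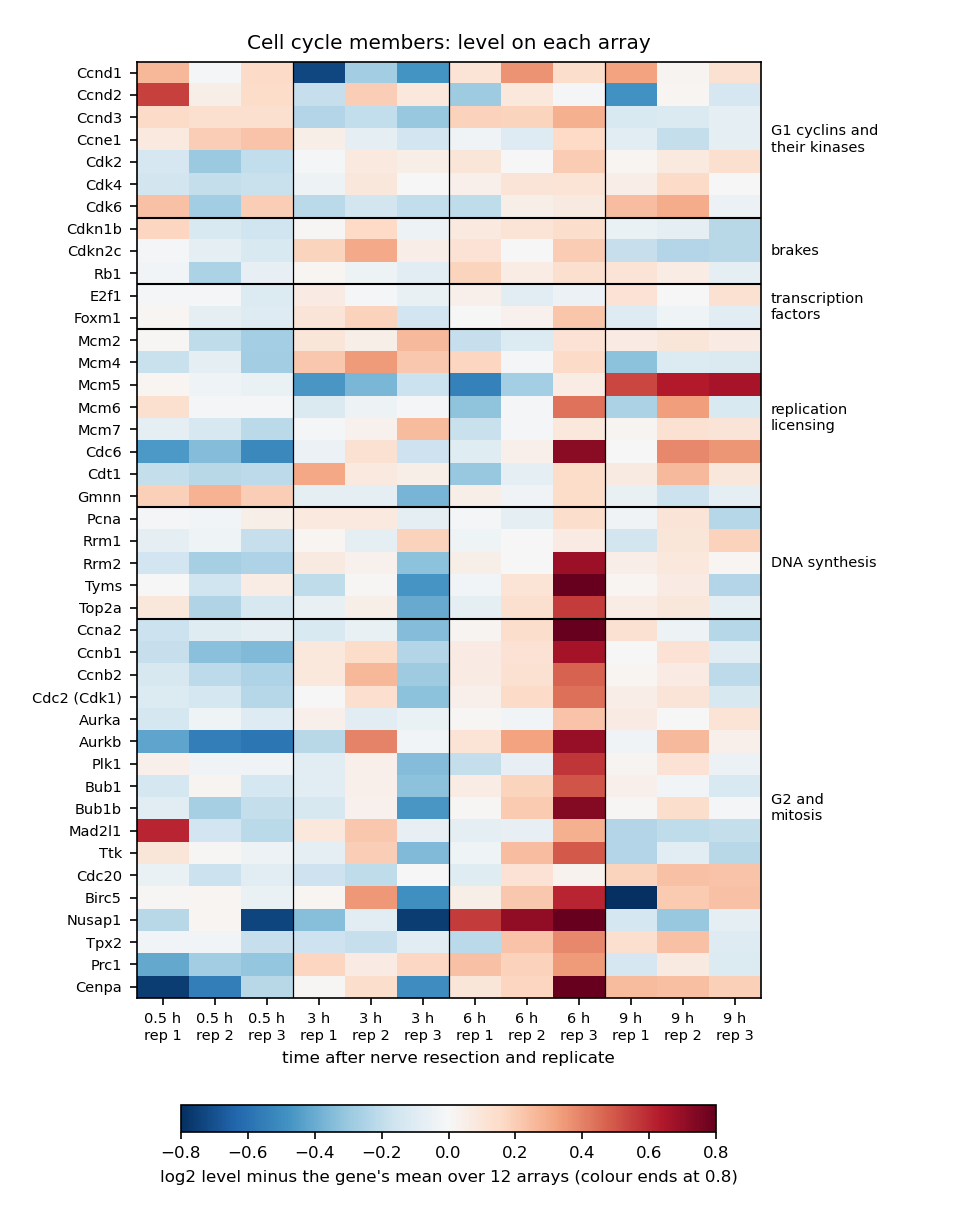
Level of the 42 members (rows, by role) on each of the 12 arrays (columns, by time and replicate) as the difference from the gene's mean over the arrays, in log2 units. The column of 6 h replicate 3 is the highest for 15 of the 17 genes of G2 and mitosis, and Mcm5 is highest in the 9 h columns.

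A single array held much of the members' variation. On 6 h replicate 3, 24 of the 42 members had their highest level of all 12 arrays, among them 15 of the 17 of G2 and mitosis, where 5.64% of all genes had theirs on that array. The mean level of the 17, centred over the arrays, was 0.04, 0.17 and 0.57 on the 3 arrays at 6 h, against -0.12, -0.16 and -0.22 at 0.5 h. Thus 6 h replicate 3 was far above the rest, and the other 6 h arrays were also above those of 0.5 h. However, 6 h replicate 1 lay below 3 h replicate 2 (0.08) and 9 h replicate 2 (0.07). Without 3 h replicate 3 and 6 h replicate 3 together, the median difference of the 17 at 6 h against 3 h was 0.06, and none was called. Within a time, the median SD of these genes was 0.07 at 0.5 h, 0.20 at 3 h, 0.29 at 6 h and 0.10 at 9 h. On 3 h replicate 3, 14 of the 42 members had their lowest level (10.6% of all genes did), 8 of them of G2 and mitosis, with a centred mean of -0.26.

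Some markers of other cell types were also highest on 6 h replicate 3: 5 of 8 neutrophil, 3 of 3 red cell and 3 of 6 lymphocyte markers. Of 6 macrophage markers 1 was, namely Itgam. The centred mean of the macrophage markers was highest there too (0.42), whereas their summed level was 8.03 there and 9.05 on 3 h replicate 3. The summed linear level of 8 of 9 neutrophil markers was 3.92, 3.6 and 19.2 at 6 h, against 3.50, 3.43 and 5.69 at 0.5 h, and the range was 2.45 to 3.86 at 3 h and 4.82 to 6.70 at 9 h. S100a8, a defining neutrophil gene, was at 0.43, 0.22 and 2.91 at 6 h and Mpo, the myeloperoxidase of young neutrophils, at -5.63, -5.32 and -2.22. Ltf (-6.64, -6.97 and -6.95 at 6 h) and Csf3r (-5.96, -5.18 and -5.45) were not raised on that array. These and Il1r2 were highest on 9 h arrays. Il1r2 was, however, higher on 6 h replicate 3 (-2.57) than on the other 6 h arrays (-3.6 and -3.73). The summed level of 3 of 6 red cell markers was 3.4, 3.57 and 7.96 at 6 h, against 2.43, 3.45 and 5.42 at 0.5 h.

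The centred mean of 6 of 8 lymphocyte markers was -0.17, 0.04 and 0.78 on the 6 h arrays, against -0.31, -0.31 and -0.20 at 0.5 h, and 6 h replicate 3 was again the highest. Their summed level was nearly flat, at 1.69, 1.69 and 1.8 at 6 h, against 1.48, 1.6 and 1.78 at 0.5 h. Cd3d, a T cell receptor subunit, was lowest of the 6 h arrays on replicate 3 (0.40, 0.39 and 0.17). All 8 neutrophil and all 3 red cell markers were well above background on all 6 h arrays. The 8 skeletal muscle markers moved differently, with summed levels of 50.1, 445 and 122 at 6 h, 46.2 on 3 h replicate 3 and 227 and 243 on the other 3 h arrays. The part of these cells in the members' levels was not tested.

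**Figure D5:**
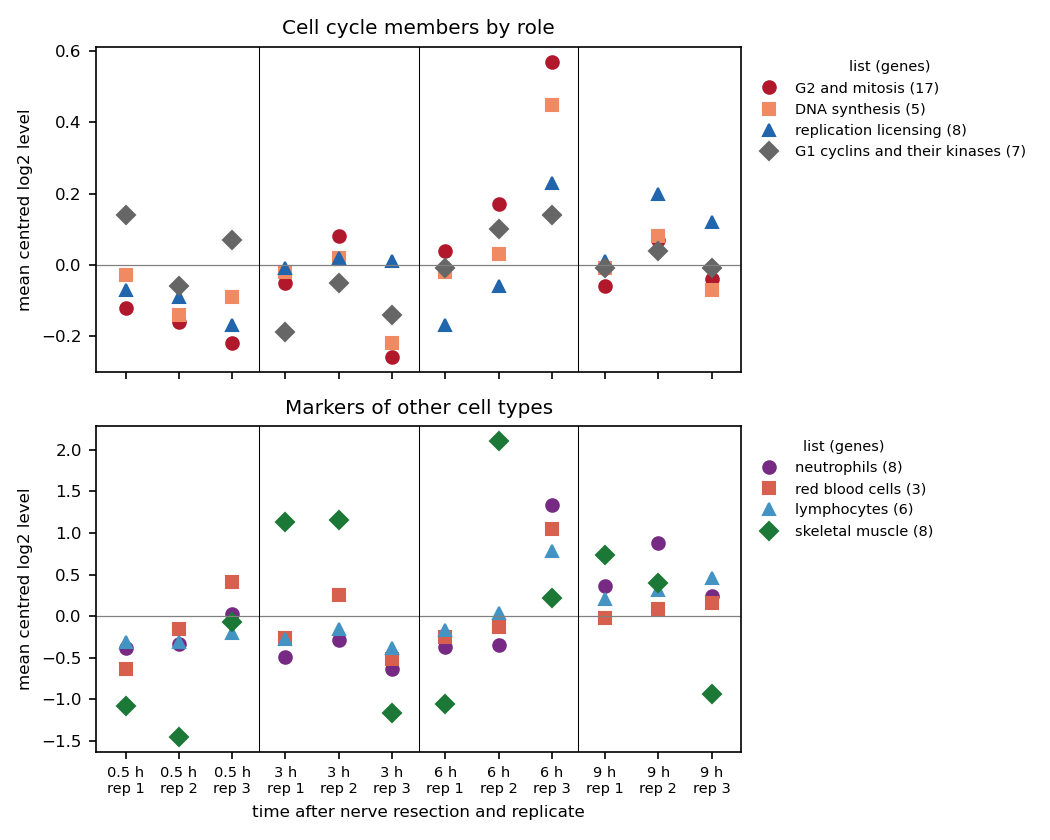
Mean log2 level, centred over the 12 arrays, of 4 groups of members (upper panel) and of 4 lists of markers of other cell types (lower panel) on each array, in order of time and replicate (x axis). On 6 h replicate 3 the genes of G2 and mitosis are at 0.57, the neutrophil markers at 1.33, the red cell markers at 1.05 and the lymphocyte markers at 0.78, each the highest of its list.

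Other genes of the pathway were taken from a list of 101 names, of which 83 were measured. At 3 h against 0.5 h 12 rose and 5 fell, at 6 h 8 rose and 2 fell, and at 9 h 12 rose and 4 fell, or 20.5, 12 and 19.3% of the 83, against 22.7, 13.4 and 33.4% of all genes. From 3 h on, 2 rose and 2 fell at 6 h, and at 9 h 3 rose and 4 fell relative to 6 h while 5 rose and 8 fell relative to 3 h. These were 4.82, 8.43 and 15.7% of the 83, against 10.4, 25.1 and 23.5% of all genes. On 6 h replicate 3, 28 of the 83 had their highest level, as did 5.64% of all genes. Unlike those of the members, the calls of these genes were not checked under other settings or with further probes. For the members, the checks covered the brightest probe of each gene and the mean of its probes. Calls given above for dimmer probes of members were not checked under other settings.

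Cdkn1a, the Cdk inhibitor p21, was at 0.66, 0.89 and 0.33 at 3 h, against 0.01, -0.74 and -0.54 at 0.5 h, and rose by 1.05 (SE 0.20, adjusted p = 0.00541). Tob1, which restrains proliferation, was at -1.84, -1.73 and -1.87 at 3 h, against -1.08, -1.06 and -0.93 at 0.5 h, and fell by 0.79 (SE 0.13, adjusted p = 0.00273). The 6 h arrays of Tob1 were at -0.80, -0.66 and -0.56, above all others, and it rose by 1.14 against 3 h (SE 0.13, adjusted p = 0.000495) and fell by 1.09 at 9 h against 6 h (SE 0.13, adjusted p = 0.000203). Like Ccnd1 and Ccnd3, Tob1 was lower at 3 h than at both neighbouring times.

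E2f3, an activator of S phase genes, was at -1.52, -1.69 and -1.67 at 3 h, against -1.06, -0.99 and -0.99 at 0.5 h, and fell by 0.62 at 3 h, 0.67 at 6 h and 0.56 at 9 h (SE 0.07 each, adjusted p = 0.000445, 0.00145 and 0.000583). Cdc7, the kinase that fires licensed origins, fell by 0.66 at 6 h and 0.70 at 9 h against 0.5 h (SE 0.13 each, adjusted p = 0.0132 and 0.00374). Ccnf, cyclin F, was too dim on all 0.5 h arrays to be well above background and was at least 1.3-fold higher at 3 h, 1.58-fold at 6 h and 1.9-fold at 9 h (adjusted p = 0.0229, 0.0063 and 0.000474).

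Anln, the cleavage furrow protein anillin, was likewise too dim at 0.5 h and was at least 1.19-fold higher at 3 h, 1.33-fold at 6 h and 1.07-fold at 9 h (adjusted p = 0.013, 0.0103 and 0.0227). Uhrf1, which helps to maintain DNA methylation, and Ccnt1, cyclin T1 of a transcription elongation kinase, were called higher at 9 h (adjusted p = 0.0108 and 0.0056) with no usable bound, since no 0.5 h array was well above background. Cdkn2aip, which binds the tumour suppressor ARF, rose by 0.53 at 3 h (SE 0.08, adjusted p = 0.00165). Ube2t, a ubiquitin-conjugating enzyme, rose by 0.66 at 6 h (SE 0.14, adjusted p = 0.0156). Hmmr, a spindle-associated hyaluronan receptor, fell by 0.56 at 3 h (SE 0.16, adjusted p = 0.0353), and Orc4, of the origin recognition complex, by 0.58 at 9 h (SE 0.10, adjusted p = 0.00188). Tob1 fell by 0.74 at 9 h against 0.5 h as well (adjusted p = 0.00248).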

How the data were processed

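Total RNA of rat dorsal root ganglia was labelled with Cy3 and hybridised to 1-colour arrays, per the labels' protocols. The deposited values are intensity values per spot after the scanner software's background subtraction (Agilent Feature Extraction 10.5.1.1, per the file headers). Any scaling between arrays by the authors is not stated in the labels. From these, log2 values minus each array's 75th percentile over its non-control spots were computed. Control spots and outlier spots (76 to 218 per array) were left out and no spot was saturated. Of 41012 probes, 34837 passed the filter, which asks that each array of some time be well above background, and the brightest kept probe stood for a gene. The percentile was first taken over probe averages and then, after the counts of calls had been seen, over spots, and both are given in the closing section.

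Times were compared with limma 3.58.1 in R 4.3.3 (with the package data.table, version 1.17.8) over 12 arrays and 29623 genes, with Benjamini-Hochberg adjustment within each of 6 comparisons. The fit was tested on simulated data. Precision is limited by having 3 arrays per time. Where no array of a time was well above background, a bound (at least N-fold) is given. For it the dim probe's signal on an array was raised to the weakest signal called well above background there, where it was lower, and bounds under 1 are left out. Probe coordinates are those of the files (rn4), and upstream sequences are from RefSeq (GRCr8).

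The members, lists and tests were chosen with earlier results of these data known. The text gives the values of every member called in any comparison, and for other pathway genes up to the 3 largest called differences each way at 3, 6 and 9 h against 0.5 h. Same-numbered replicates did not deviate together (18 pairs, r from -0.13 to 0.22, 3 over 0.1), so the numbers were not used as pairs. The 12 arrays were on 5 slides, and the file headers give 3 scan days.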

Additional observations from a re-analysis of the deposited data

How the results depend on the processing

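The numbers of members called were 9, 7 and 12 at 3, 6 and 9 h against 0.5 h, 3 for 6 h over 3 h, 6 for 9 h over 6 h, 5 for 9 h over 3 h, and 14 by the F test. With normexp background correction each was 0, and of the 42 calls 38 were lost and 4 turned sign: Mcm4 (0.15), Nusap1 (0.1) and Prc1 (0.19) at 9 h against 6 h and Mcm4 at 9 h against 3 h (0.56). With slide as a random block, whose estimated correlation was negative (-0.25), the counts were 16, 18, 20, 9, 11, 8 and 32. At 6 h against 0.5 h the count was 3 with a common detection floor, with only probes well above background on all 12 arrays and with only the arrays of the 2 times. At 9 h against 0.5 h it was 7 under median scaling, cyclic loess and the floor. At 9 h against 6 h it was 19 under median scaling and 3 with the stricter probe filter, and the F test gave 24 under median scaling. The shares of all genes called under these settings are not given, so the counts describe the members only. Prc1 at 9 h against 0.5 h turned sign under quantile (-0.17) and cyclic loess scaling (-0.12). Of the 42 calls, quantile scaling kept 35, median scaling 35, cyclic loess 34, the floor 28, the mean of a gene's probes 36, another variance model (trend and robust) 39 and the arrays of the 2 times alone 32. Leaving out 1 array gave 5 to 12, 3 to 7, 5 to 13, 3 to 4, 3 to 7, 5 to 6 and 9 to 17 members. The lowest counts came without 0.5 h replicate 3 or 3 h replicate 2 at 3 h (5), without 0.5 h replicate 2 or 6 h replicate 3 at 6 h (3), without 9 h replicate 2 at 9 h (5), with 7 without 0.5 h replicate 2, without 6 h replicate 3 at 9 h against 6 h (3) and without 0.5 h replicate 2 for the F test (9). The replicate block gave 6, 5, 10, 3, 5, 5 and 12, and 34 of the 42 calls were kept. Of alternatives chosen after seeing the data, leaving out 3 h replicate 3 and 6 h replicate 3 together gave 1 at 6 h against 3 h, and 32 of the 42 calls were kept. The percentile over probe averages, tried first, and the percentile without outlier spots each gave 10, 7, 12, 3, 6, 5 and 14, and the 42 calls were kept under both. The 42 calls were also kept with the series-wide table, without the probe filter and with slide as a block. These settings do not test the calls. The series-wide table held the same values, and without the filter each member had the same probe. Slides lay within times, so the fit with a negative slide correlation could not set slide apart from time. The cause of the changes between settings was not tested. Faint probes limit the comparisons with 0.5 h, where the fewest spots were well above background.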
